A study of Mus musculus with 14 samples.

Results

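The 9 liver tumours labelled as lacking Cdk18 were compared, as 1 group, with the 5 wild-type tumours of the same series, across every gene with enough counts. The group was taken from the genotype labels alone and holds 5 tumours labelled CDK18KO and 4 labelled as knockouts of both CDK16 and CDK18, here DKO. It makes up 9 of 14 libraries, and the remaining 5 are labelled WT. All tumours were raised by hydrodynamic injection of plasmids carrying mouse c-Myc and β-catenin, so every group shares these drivers. Per the labels' protocols, Cdk16 was removed from formed tumours with tamoxifen (75 mg/kg on 5 days, tissue 10 days later) in mice with floxed Cdk16 and Cre-ERT2, a recombinase active only with tamoxifen, and Cre-ERT2 animals served as controls. These protocols are worded alike for all 14 libraries, and the sources used here do not give which WT or CDK18KO mice carried Cre-ERT2 or received tamoxifen, the promoter of Cre-ERT2, the strain or the age. Mice were kept until a tumour measured 15 mm, until distress or for at most 8 weeks, and the series' design counts each library as a biological replicate. The pooled comparison asks what goes with loss of Cdk18 whatever the state of Cdk16.

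CDK16 and CDK18 belong to the PCTAIRE kinases, a branch of the cyclin-dependent kinase family named after a sequence motif and best known outside the core cell cycle. CDK16 is activated by cyclin Y, and CDK18 has been linked to the response to replication stress. In liver, c-Myc drives ribosome production and proliferation, and β-catenin controls the genes of hepatocytes around the central vein, such as glutamine synthetase. Hepatocellular tumours lose the products of mature hepatocytes to differing degrees.

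Messenger RNA was counted from its 3′ end, and levels are CPM, counts scaled to the size of each library, with a scaling factor per library (TMM). The sums of Y-linked genes and the levels of Alb, Cd3e, Nkg7, Trac, Dcn and Col1a1 used the library total alone, without this factor. Library totals ran from 1442417 counts in WT 5 to 6068209 in WT 2, and 13454 of 77981 listed genes had enough counts to be kept. Principal component analysis did not part the groups. Its leading component held 49.5% of the variance, and CDK18KO 1, CDK18KO 3 and DKO 3 lay on the WT side at -48.48, -37.39 and -62.17, within the WT range of -101.52 to -17.83, and the other 6 knockout libraries lay between 56.95 and 122.00. WT 2 was the WT library nearest to the knockouts. Y-linked genes summed to 234 CPM in WT 3, 711 in WT 5 and 361 in CDK18KO 1, against at most 33.6 elsewhere. Albumin (Alb) was counted in every library, at 32.1 to 1325 CPM in WT and 60.6 to 3295 CPM in knockout tumours, while the T cell gene Cd3e was at 0 in 8 of 14 libraries and the B cell gene Cd79a in 13. In such bulk tissue, fewer cells of a type and less RNA per cell cannot be told apart.

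The targeted genes were examined first. Cdk18 (chr1:132112237-132139684, minus strand, GRCm38) stood at 2.23, 10.5, 5.25, 1.27 and 4.54 CPM in WT 1 to 5 and at 0.575 to 4.07 CPM (median 1.81) in the 9 knockout tumours. WT 2 was the highest library, and WT 1 and WT 4 lay within the knockout range. With 110 counts in WT and 52 in knockout libraries in all, the log2 fold change was -1.25 (SE 0.51, edgeR adjusted p = 0.182), and an exact two-sided permutation test over all 2002 divisions into 9 and 5 gave p = 0.0514. Without WT 2 the fold change was -0.70 on the log2 scale. Cdk16 (chrX:20687954-20699880, plus strand) stood at 47.8, 59.5, 53.1, 40.3 and 44.7 CPM in WT 1 to 5, 64.1, 37.5, 37.0, 32.4 and 31.5 over CDK18KO 1 to 5, then 39.6, 18.4, 48.0 and 17.8 over DKO 1 to 4. Its pooled log2 fold change was -0.43 (SE 0.28, edgeR adjusted p = 0.374, exact permutation p = 0.0819). The sources used here do not say where the counted 3′ ends lie relative to the deletions, so these levels check no label. Of the 8 kept genes among PCTAIRE and PFTAIRE kinases and their cyclin partners, including Cdk14, Cdk17, Cdk5 and Ccny, edgeR called 0, and Cdk18 alone had an unadjusted p under 0.05, as did 21.0% of all genes kept.

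EdgeR called 11 genes between the pooled knockouts and WT, 1 higher and 10 lower, 0.0818% of the genes kept (0.00743% higher and 0.0743% lower), at an adjusted p under 0.05. C1rb, one of a pair of mouse genes for the complement protease C1r, rose. The other gene of the pair, C1ra, fell, as did the melanocortin antagonist nonagouti (a), the developmental transcription factors Tfap2c and Twist1, the retinoic acid binding protein Crabp1, the lipocalin Apod, the DNA primase subunit Prim2, the ribosomal protein paralog Rpl39l and the noncoding genes G630016G05Rik and Gm17494. In the annotation of GRCm38, C1ra spans chr6:124512405-124523443 and C1rb chr6:124570294-124581171. Nonagouti (chr2:154791402-155051012), Tfap2c (chr2:172549593-172558622) and G630016G05Rik (chr2:116067225-116085911) share chromosome 2, and Apod (chr16:31296192-31314808) and Rpl39l (chr16:10170226-10174911) chromosome 16. The others are Prim2 at chr1:33453810-33669795, Gm17494 at chr3:122255958-122293720, Crabp1 at chr9:54764748-54773110 and Twist1 at chr12:33957671-33959829.

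**Figure D1:**
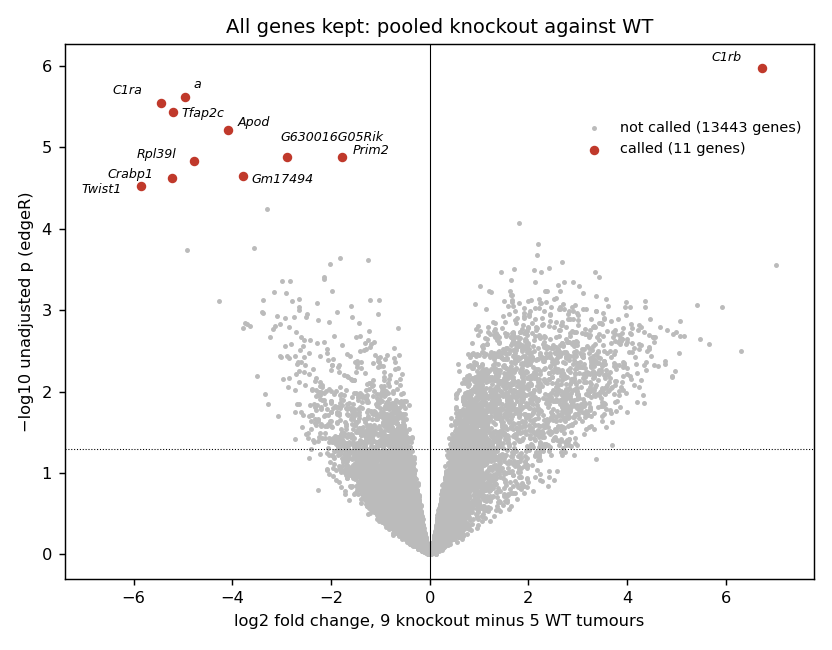
Each point is 1 of the 13454 genes kept, with the log2 fold change of 9 knockout over 5 WT tumours across and the −log10 of the unadjusted edgeR p upward; red points are the 11 genes called at an adjusted p under 0.05, and the dotted line marks an unadjusted p of 0.05. C1rb stands alone at the upper right, the other 10 called genes are at the upper left, and a broad cloud of uncalled genes leans to the right.

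C1ra and C1rb lie close together on chromosome 6, and their promoter sequences are printed because the pair moved in opposite directions. Both windows run from 250 bases before to 50 after the annotated start (RefSeq, GRCm38.p6, plus strand), C1ra at chr6:124512371-124512670 and C1rb at chr6:124570180-124570479. Capitals mark a stretch that the windows share: bases 152 to 300 of C1ra and 1 to 149 of C1rb, 92.7% identical over 150 aligned columns, gaps included.
C1ra: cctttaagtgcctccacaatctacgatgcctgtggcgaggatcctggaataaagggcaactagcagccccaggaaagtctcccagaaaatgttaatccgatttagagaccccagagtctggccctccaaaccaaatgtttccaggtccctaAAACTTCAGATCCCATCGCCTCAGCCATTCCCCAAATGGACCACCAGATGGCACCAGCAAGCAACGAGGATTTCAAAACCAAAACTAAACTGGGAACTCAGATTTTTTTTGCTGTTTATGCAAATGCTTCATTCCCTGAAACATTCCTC
C1rb: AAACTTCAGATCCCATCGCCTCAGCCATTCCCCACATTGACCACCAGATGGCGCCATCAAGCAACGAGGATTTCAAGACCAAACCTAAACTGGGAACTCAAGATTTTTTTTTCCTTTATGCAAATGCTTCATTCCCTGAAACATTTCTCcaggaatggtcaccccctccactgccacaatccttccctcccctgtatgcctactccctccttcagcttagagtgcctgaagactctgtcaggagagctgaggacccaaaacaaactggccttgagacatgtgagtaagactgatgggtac
By the RefSeq starts, the shared stretch runs past the C1ra start to the last base of its window, but lies upstream of the C1rb start. The gene positions given further up start earlier in both windows, at 124512405 for C1ra and 124570294 for C1rb. By those starts the stretch lies within C1ra and reaches into C1rb, so its place relative to the start depends on the annotation. The annotated transcripts were 97.9% identical over 2431 aligned columns, and within the last 300 bases of C1rb a run of 215 bases, longer than the 151-base reads, occurs unchanged in C1ra. The aligned part ends at base 2662 of the 2981 bases of the C1ra transcript, so the annotated 3′ end of C1ra lies beyond it. Where the counted reads fell along either gene was not examined. The sources used here do not say how reads matching both genes were counted, so the division between the 2 genes is uncertain in each library.

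C1rb stood at 2.23, 4.28, 2.04, 0 and 0.757 CPM in WT 1 to 5 and at 39.4 to 439 CPM (median 199) in the knockout tumours. The lowest knockout library, DKO 3, was above the highest WT library. The pooled log2 fold change was 6.73 (SE 0.87, edgeR adjusted p = 0.0122), with 6.46 (SE 0.89) in CDK18KO and 7.02 (SE 0.92) in DKO against the same WT libraries. C1ra stood at 19.7, 112, 28.9, 10.5 and 49.2 CPM in WT 1 to 5, highest in WT 2, and at 0 to 2.71 CPM (median 1.15) in knockouts, which gave -5.44 on the log2 scale (SE 0.76, edgeR adjusted p = 0.0122). As a share of the counts of both genes, C1rb held 0 to 10.2% in WT libraries and 99.1 to 100% in knockout libraries. The widest exact 95% Clopper-Pearson intervals were 3.82 to 20.8% in WT 1 and 97.0 to 100% in DKO 3, and they cover counting error only. WT 4 had 0 C1rb counts of 33, where 3 counts, the floor used for a count of 0, would be a share of 9.09%, and its exact interval reached 10.6%. Summed over both genes, the 9 knockouts had 39.4 to 441 CPM and WT 10.5 to 116 CPM, so the sums overlapped where the shares did not. C1s1, a complement gene of the same cluster, was not tested, as it did not have enough counts in enough single libraries. It had 385 counts in WT (9, 293, 32, 21 and 30 in WT 1 to 5) and 2 in the knockout libraries, at most 1 in each.

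The gene symbol a denotes nonagouti, whose product blocks melanocortin receptors in hair pigmentation. WT 1 to 5 held 38.9, 39.1, 73.2, 139.8 and 37.8 CPM of its transcript and the knockouts 0 to 5.44 CPM (median 1.16), and the log2 fold change was -4.97 (SE 0.68, edgeR adjusted p = 0.0122). Every knockout library lay below every WT library. Tfap2c, which encodes the AP-2γ factor of trophoblast and germ cells, was at 31.5, 9.53, 30.1, 30.7 and 65.9 CPM in WT 1 to 5 and 0 to 2.72 CPM (median 0.543) in knockouts (log2 fold change -5.21, SE 0.74, adjusted p = 0.0122). WT 2 had the lowest WT level and still exceeded the highest knockout, CDK18KO 1. Apod, a secreted lipid carrier, was at 44.1, 38.0, 58.6, 60.9 and 12.9 CPM in WT 1 to 5 and 0 to 7.36 CPM (median 1.75) in knockouts (log2 fold change -4.09, SE 0.61, adjusted p = 0.0164).

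Prim2 encodes the large subunit of DNA primase, which starts new DNA strands at the replication fork. It stood at 21.5, 21.5, 29.5, 22.8 and 22.7 CPM in WT 1 to 5, 8.46, 4.34, 8.39, 7.54 and 8.93 over CDK18KO 1 to 5, then 2.91, 4.60, 8.32 and 8.35 over DKO 1 to 4. Its change was the smallest of the 11 (-1.77, SE 0.28, edgeR adjusted p = 0.0249), and its WT libraries lay closest together, at 23.6 ± 3.33 CPM (SD, n = 5). Crabp1, a carrier of retinoic acid, was at 31.2, 5.52, 28.6, 96.0 and 21.2 CPM in WT 1 to 5 and 0 to 4.04 CPM (median 0) in knockouts, -5.22 on the log2 scale (SE 0.88, adjusted p = 0.0322). Of the 9 knockouts 5 had no Crabp1 count. Twist1, a mesodermal factor known for its part in the epithelial to mesenchymal transition, spread most widely in WT, at 27.4, 1.38, 10.2, 204 and 147 CPM in WT 1 to 5, against 0 to 4.80 CPM (median 0.907) in knockouts (-5.85, SE 1.0, adjusted p = 0.0361). WT 2 lay within the knockout range of Twist1, below CDK18KO 3, DKO 2 and DKO 3.

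Rpl39l, a close copy of the ribosomal protein gene Rpl39 with which it may share reads, was at 34.1, 2.48, 21.0, 14.3 and 102 CPM in WT 1 to 5 and 0 to 4.04 CPM (median 0.656) in knockouts (-4.77, SE 0.77, edgeR adjusted p = 0.0249). CDK18KO 3 exceeded WT 2 in Rpl39l, and the other libraries were apart. The long noncoding RNA G630016G05Rik went from 5.84 to 34.1 CPM (median 14.8) in WT to 0.470 to 3.90 CPM (median 2.18) in knockouts (-2.89, SE 0.46, adjusted p = 0.0249). For the processed transcript Gm17494 the levels were 3.49 to 29.8 CPM (median 10.0) and 0 to 2.18 CPM (median 0.873) (-3.79, SE 0.63, adjusted p = 0.0322). Of the 11 genes, 9 had no overlap between groups, where 0.565% of the genes kept had none, and DESeq2, which called 10.6% of the genes kept, called all 11. The 11 were picked by the same split of the same values, so these counts describe them and are no separate support.

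**Figure D2:**
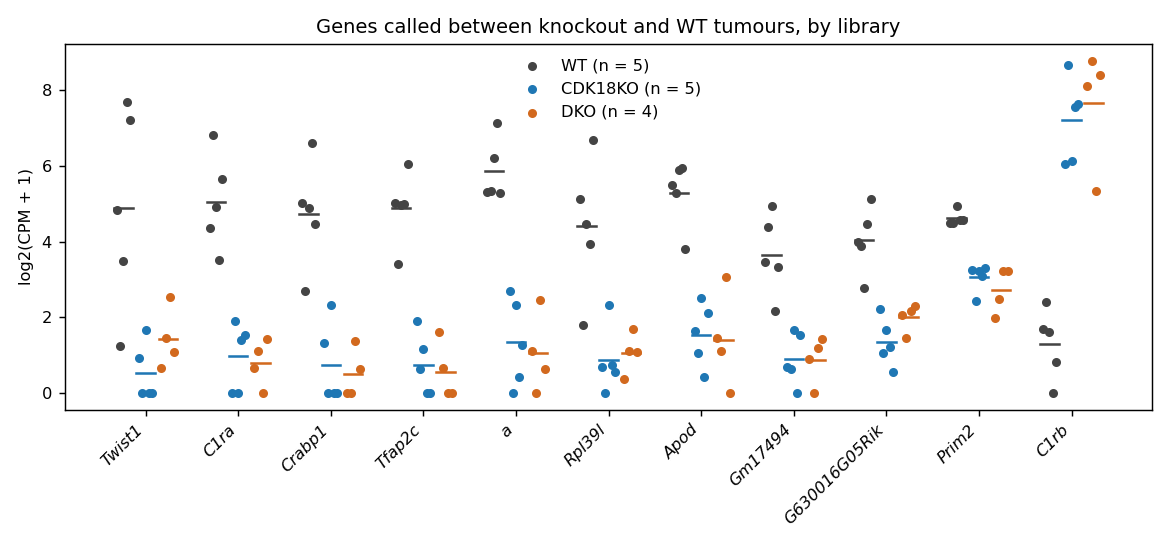
Each point is 1 library and the vertical axis is log2(CPM + 1) of the 11 called genes; grey is WT, blue CDK18KO and orange DKO, and bars are group means. C1rb is high in all 9 knockout libraries, from 39.4 CPM upward, the other 10 genes are high in WT, and WT 2 reaches the knockout level of Twist1 and Rpl39l.

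Each knockout genotype was also read against the same WT libraries, which both share. Side by side, the log2 differences were -4.78 in CDK18KO and -5.24 in DKO for nonagouti, -1.64 and -1.96 for Prim2, -4.19 and -3.96 for Apod, and -6.73 and -5.18 for Twist1. Between DKO and CDK18KO, 0 of the 11 had an unadjusted p under 0.05, where 5.60% of the genes kept did. The pooled test favours genes alike in both genotypes and 11 genes are few, so no conclusion is drawn from this count. Across all genes, edgeR called 0 (0%) between DKO and CDK18KO at an adjusted p under 0.05, 754 had an unadjusted p under 0.05 (509 or 3.78% higher and 245 or 1.82% lower in DKO), and DESeq2 called 73 (0.543%). The genotypes also differ in Cdk16 and perhaps in Cre and tamoxifen, which cannot be told apart here.

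The calls depended on single libraries, above all on WT 2. Leaving WT 2 out raised the number of called genes to 567, of which 492 were higher and 75 lower in knockouts, and all 11 were among them. Leaving out WT 1, WT 3, WT 4 or WT 5 left 6, 5, 7 and 7 calls, leaving out CDK18KO 4, DKO 1 or DKO 2 left 7, 7 and 6, and leaving out CDK18KO 1 gave 19. C1rb, C1ra, nonagouti and Tfap2c were called in all 14 of these fits. Apod lost its call without WT 3 or WT 4 (adjusted p up to 0.0513), Prim2 without WT 1, WT 3, WT 4, WT 5 or DKO 2 (up to 0.110), and G630016G05Rik without WT 1, WT 4, WT 5, CDK18KO 4, DKO 1 or DKO 2 (up to 0.103). Gm17494 and Crabp1 were lost in 7 and 10 of the fits, and Rpl39l and Twist1 in 8 and 12 of the 13 fits that kept them, with adjusted p up to 0.168. With the mean of a hepatocyte gene list as a covariate, edgeR called C1ra alone, and C1rb and nonagouti each had an adjusted p of 0.0593. Log2 fold changes in that fit were -7.08 for C1ra, 4.93 for C1rb, -3.81 for nonagouti, -5.01 for Tfap2c, -5.12 for Twist1, -3.18 for Apod and -1.37 for Prim2. With Y-linked expression as a covariate C1ra and C1rb were called (adjusted p = 0.0454 each), and without the 3 libraries of high Y-linked expression 0 genes were called, with 2119 at an unadjusted p under 0.05.

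**Figure D3:**
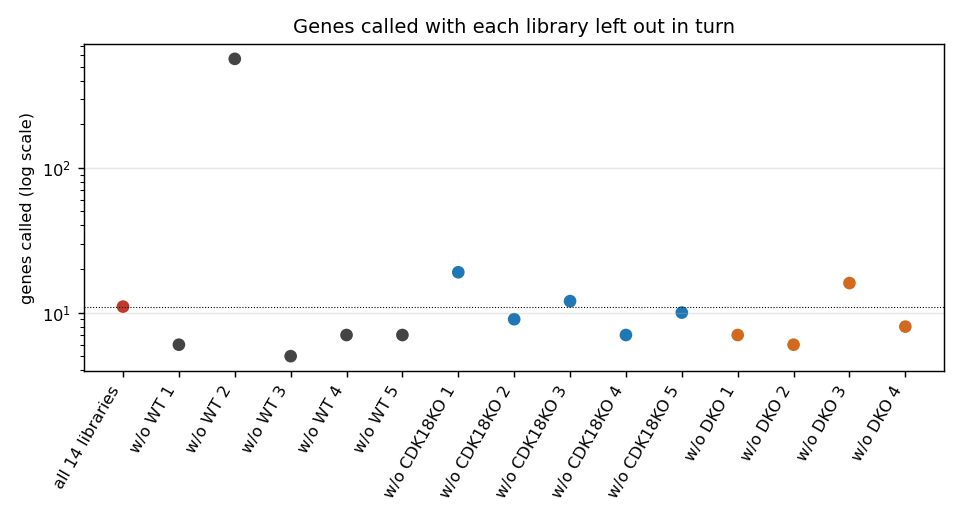
The vertical axis, on a log scale, gives the number of genes called by edgeR with all 14 libraries (red, 11 genes, dotted line) and with each library left out in turn (grey WT, blue CDK18KO, orange DKO). Leaving out WT 2 gives 567 calls and each other omission between 5 and 19.

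Below the threshold, more genes were higher than lower in the knockouts by edgeR and DESeq2. At an unadjusted p under 0.05 there were 2823 genes (21.0%), of which 2005 were higher (14.9%) and 818 lower (6.08%). DESeq2 called 1429 (10.6%), 1210 higher (8.99%) and 219 lower (1.63%). The lean depended on the fit: at an unadjusted p under 0.05, 1636 of 2759 genes were higher with upper-quartile scaling and 561 of 931 with the Y-linked covariate, but 1886 of 3798 with voom and 123 of 272 with the hepatocyte covariate. The median log2 fold change over all genes kept was -0.01, and 49.3% of the genes lay above 0.

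After C1rb, the 9 genes of smallest p in the higher direction had edgeR adjusted p of 0.0878 to 0.097, and DESeq2 called all 9. Rnf213, an interferon-induced ubiquitin ligase, was at 5.56, 16.2, 9.34, 4.75 and 12.9 CPM in WT 1 to 5 and 21.8 to 48.9 CPM (median 28.7) in knockouts, 1.81 on the log2 scale (SE 0.34, adjusted p = 0.0878), with no overlap. Isg15, a ubiquitin-like protein induced by interferon, had 4.82, 8.42, 4.67, 2.22 and 3.03 CPM in WT 1 to 5 and 5.76 to 51.5 CPM (median 23.3) in knockouts (2.42, SE 0.52, adjusted p = 0.0970). DKO 3 was its lowest knockout library and lay below WT 2. Ifi44 and Xaf1, both interferon-induced, differed by 2.69 (SE 0.57) and 2.11 (SE 0.46). Xaf1 was near 1.75 CPM in all WT libraries and at 1.41 to 12.8 CPM (median 7.23) in knockouts, with CDK18KO 5 below every WT library.

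Among the metabolic genes, Prox1, a transcription factor of hepatocytes and lymphatic vessels, was at 77.5, 133, 41.4, 66.6 and 123 CPM in WT 1 to 5 and 163 to 576 CPM (median 223) in knockouts (1.70, SE 0.37, edgeR adjusted p = 0.0970). Thrb, the thyroid hormone receptor β, differed by 2.20 (SE 0.44), Apobec1, which edits apolipoprotein B messenger RNA, by 2.18 (SE 0.45), and Dbt, a subunit of the branched-chain keto acid dehydrogenase, by 1.45 (SE 0.32). Apobec1 stayed between 2.27 and 3.73 CPM in WT and ran from 4.23 to 25.5 in knockouts. Sult2a3, a sulfotransferase with close copies in its cluster, had the widest spread, 0 to 1.27 CPM (median 0.414) in WT against 0.320 to 252 CPM (median 33.9) in knockouts (7.02, SE 1.50), and DKO 3 overlapped WT.

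Interferon list genes stood higher in the knockouts. All 26 kept members of the interferon γ and antigen presentation list had a log2 fold change above 0, with a median of 2.19, 25 had an unadjusted p under 0.05 and DESeq2 called 21 higher. Of the type I interferon list, all 16 kept members were above 0 (median 1.84), 13 had an unadjusted p under 0.05 and DESeq2 called 11. EdgeR called 0 of either list. Over all genes kept, 14.9% were higher at that unadjusted p, and DESeq2 called 8.99% higher. Summed CPM of the type I list was 119 to 249 CPM (median 185) in WT and 261 to 928 CPM (median 638) in knockouts, and in this sum, which abundant members dominate, all 9 knockout libraries lay above all WT libraries. By the mean log2 CPM of its members, DKO 3 (0.51 relative to the WT mean) lay below WT 2 (0.57). Summed CPM of the interferon γ list was 267 to 884 CPM (median 532) in WT and 771 to 5327 CPM (median 1737) in knockouts, with 7 of 9 above every WT library. The hepatocyte list, which moved with both, is described further on, and with its mean as a covariate the medians were 0.68 and 1.01. The T cell genes Cd3e and Nkg7 were at 0 in all WT libraries, and had at most 0.988 and 1.20 CPM in a knockout.

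By role, the interferon-induced GTPases Irgm2, Irgm1 and Igtp, which act on membranes of intracellular parasites, differed by 2.71 (SE 0.61), 2.51 (SE 0.60) and 3.16 (SE 0.78), edgeR adjusted p = 0.097 each. Irgm2 was at 0.371, 5.25, 2.63, 1.90 and 2.27 CPM in WT 1 to 5, 3.93, 25.0, 12.4, 25.6 and 12.7 over CDK18KO 1 to 5, then 24.7, 26.5, 4.16 and 20.0 over DKO 1 to 4. CDK18KO 1 and DKO 3 lay below WT 2 and the other 7 knockouts above every WT library. Irgm2 and Igtp overlap on the same strand in the annotation, so their counts may not be separate. Rigi, a sensor of viral RNA, did not overlap between groups, at 9.64, 13.9, 6.13, 1.90 and 12.9 CPM in WT 1 to 5 and 15.4 to 48.8 CPM (median 26.6) in knockouts (1.72, SE 0.44). Its adaptor Mavs, chosen after its values were seen, was at 8.24 to 13.7 CPM (median 9.84) in WT and 13.7 to 41.4 CPM (median 19.3) in knockouts (1.13, SE 0.31), where the lowest knockout exceeded the highest WT library by less than the rounding shown.

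Promoters of interferon genes often hold the interferon-stimulated response element, and its core was searched for as GAAANNGAAA on both strands, overlapping matches included. It occurred in 15 of 33 interferon list genes with a promoter window (45.5%), in 346 of 9688 kept genes with one (3.57%) and in 1131 of all 32851 windows of that length (3.44%). The windows of Isg15 (chr4:156200769-156201068, minus strand) and Irgm2 (chr11:58214727-58215026, plus strand; RefSeq, GRCm38.p6) are shown as examples with the matches in capitals, 3 overlapping ones in Isg15 and 1 in Irgm2.
Isg15: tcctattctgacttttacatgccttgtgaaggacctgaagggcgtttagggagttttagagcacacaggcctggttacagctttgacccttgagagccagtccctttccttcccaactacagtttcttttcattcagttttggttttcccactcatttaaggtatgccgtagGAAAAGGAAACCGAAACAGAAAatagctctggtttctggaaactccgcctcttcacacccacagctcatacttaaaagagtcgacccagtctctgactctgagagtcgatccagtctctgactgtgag
Irgm2: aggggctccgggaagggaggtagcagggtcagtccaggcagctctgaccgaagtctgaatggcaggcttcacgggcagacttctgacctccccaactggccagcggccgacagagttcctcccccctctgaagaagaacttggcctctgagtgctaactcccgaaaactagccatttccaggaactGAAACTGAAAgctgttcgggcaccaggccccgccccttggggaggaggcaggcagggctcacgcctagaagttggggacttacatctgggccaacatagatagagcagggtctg
A match describes the sequence alone, and no binding was measured.

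Genes of hepatocyte function stood higher. All 34 genes of the hepatocyte list had a positive log2 fold change, with a median of 2.81, 29 had an unadjusted p under 0.05 and DESeq2 called 25, while edgeR called 0. For this and the liver lists below, the shares over all genes kept were 14.9% higher at that unadjusted p and 8.99% called higher by DESeq2. Cps1, the entry enzyme of the urea cycle, was at 9.27, 135, 7.59, 11.7 and 66.6 CPM in WT 1 to 5 and 65.0 to 931 CPM (median 658) in knockouts (3.53, SE 0.90, edgeR adjusted p = 0.0970). WT 2 was above CDK18KO 1 and DKO 3. Otc, the next urea cycle enzyme, was at 0.742 to 28.0 CPM (median 1.27) in WT and 14.4 to 397 CPM (median 79.6) in knockouts (4.10, SE 1.08), and apolipoprotein B (Apob) differed by 3.97 (SE 1.11). Summed over the list, CPM was 311, 7701, 530.1, 883 and 3639 in WT 1 to 5 and 3036 to 41553 CPM (median 14793) in knockouts. Of 9 knockout libraries 6 exceeded every WT library, and CDK18KO 1, CDK18KO 3 and DKO 3 were below WT 2.

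Of the liver transcription factors, 22 of 24 kept members were above 0 (median 1.81), 15 higher and 1 lower had an unadjusted p under 0.05 and DESeq2 called 11 higher. The bile acid receptor Nr1h4 was at 0.634 to 16.4 CPM (median 1.17) in WT and 9.60 to 92.4 CPM (median 56.1) in knockouts (3.26, SE 0.86). Nr5a2, which controls bile acid and cholesterol genes, differed by 3.75 (SE 1.01), and Ppara, the regulator of fatty acid oxidation, by 3.42 (SE 0.98), edgeR adjusted p = 0.097 each.

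Bile acid synthesis and transport had the highest median of the 42 lists, 3.69, with all 16 kept members at an unadjusted p under 0.05 and called by DESeq2. Akr1d1, a steroid reductase of bile acid synthesis, went from 0.371 to 9.94 CPM (median 2.54) in WT to 2.72 to 161 CPM (median 53.2) in knockouts (3.98, SE 1.0). Cyp7b1, of the acidic pathway, differed by 4.67 (SE 1.22), the racemase Amacr by 3.00 (SE 0.77) and the uptake transporter Slco1b2 by 3.91 (SE 1.03). Cyp7a1, the rate-limiting enzyme of the classic pathway, was at 1.48, 38.2, 1.17, 3.17 and 8.33 CPM in WT 1 to 5, 27.8, 501, 35.7, 390.0 and 27.3 over CDK18KO 1 to 5, then 464, 1320.0, 14.4 and 215 over DKO 1 to 4 (4.92, SE 1.32, edgeR adjusted p = 0.0970). WT 2 exceeded 4 of the 9 knockouts in Cyp7a1.

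All 26 genes of fatty acid oxidation and ketone bodies were above 0 (median 1.55), 25 at an unadjusted p under 0.05 and 20 called by DESeq2. Acadm, the medium-chain acyl-CoA dehydrogenase, was at 64.5, 93.9, 42.6, 108 and 129 CPM in WT 1 to 5 and 124 to 1260.1 CPM (median 237) in knockouts (2.28, SE 0.59, edgeR adjusted p = 0.0970). WT 5 overlapped DKO 3, and the other libraries were apart. Acsl1, Acaa2 and Hadh of the same pathway differed by 2.71 (SE 0.76), 2.23 (SE 0.65) and 1.48 (SE 0.42). With the hepatocyte list mean as a covariate the medians of the bile acid, fatty acid oxidation, xenobiotic and liver transcription factor lists were 1.07, 0.27, 0.60 and 0.31. For xenobiotic enzymes, all 25 kept members were above 0 (median 3.38), 23 at an unadjusted p under 0.05 and 21 called by DESeq2. Por, the electron donor of the P450 enzymes, was at 101, 94.4, 52.5, 68.1 and 117 CPM in WT 1 to 5 and 126 to 1126 CPM (median 248) in knockouts (2.14, SE 0.54), with no overlap, and aldehyde oxidase Aox3 and carboxylesterase Ces1d differed by 5.42 (SE 1.31) and 4.54 (SE 1.26).

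Genes of secreted liver proteins stood higher too. Of 35 kept complement and coagulation genes 33 were above 0 (median 2.77), 28 higher and 1 lower had an unadjusted p under 0.05, and edgeR called C1rb and C1ra alone. Without WT 2 the median was 4.32. The clotting factor subunit F13b was at 1.11 to 43.3 CPM (median 12.7) in WT and 36.1 to 732 CPM (median 133) in knockouts (3.72, SE 1.01), and the lectin Mbl2 differed by 4.53 (SE 1.23). Of 27 acute phase genes 26 were above 0 (median 2.40), 18 at an unadjusted p under 0.05 and 14 called by DESeq2. With the hepatocyte list mean as a covariate the complement and acute phase medians were 0.25 and -0.02. Saa3 differed by 2.78 (SE 0.77), and the fibrinogen chains Fgg and Fga by 2.83 (SE 0.84) and 2.84 (SE 0.83). Saa2, which has a near-identical copy in Saa1, differed between the genotypes in level, at 53.2, 7.60, 6.84, 7.87 and 17.4 CPM over CDK18KO 1 to 5, then 1401, 569, 107 and 62.3 over DKO 1 to 4 against 1.46 to 13.1 CPM (median 2.27) in WT. Its difference between DKO and CDK18KO had an unadjusted p of 0.000257 and an edgeR adjusted p of 0.198.

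**Figure D4:**
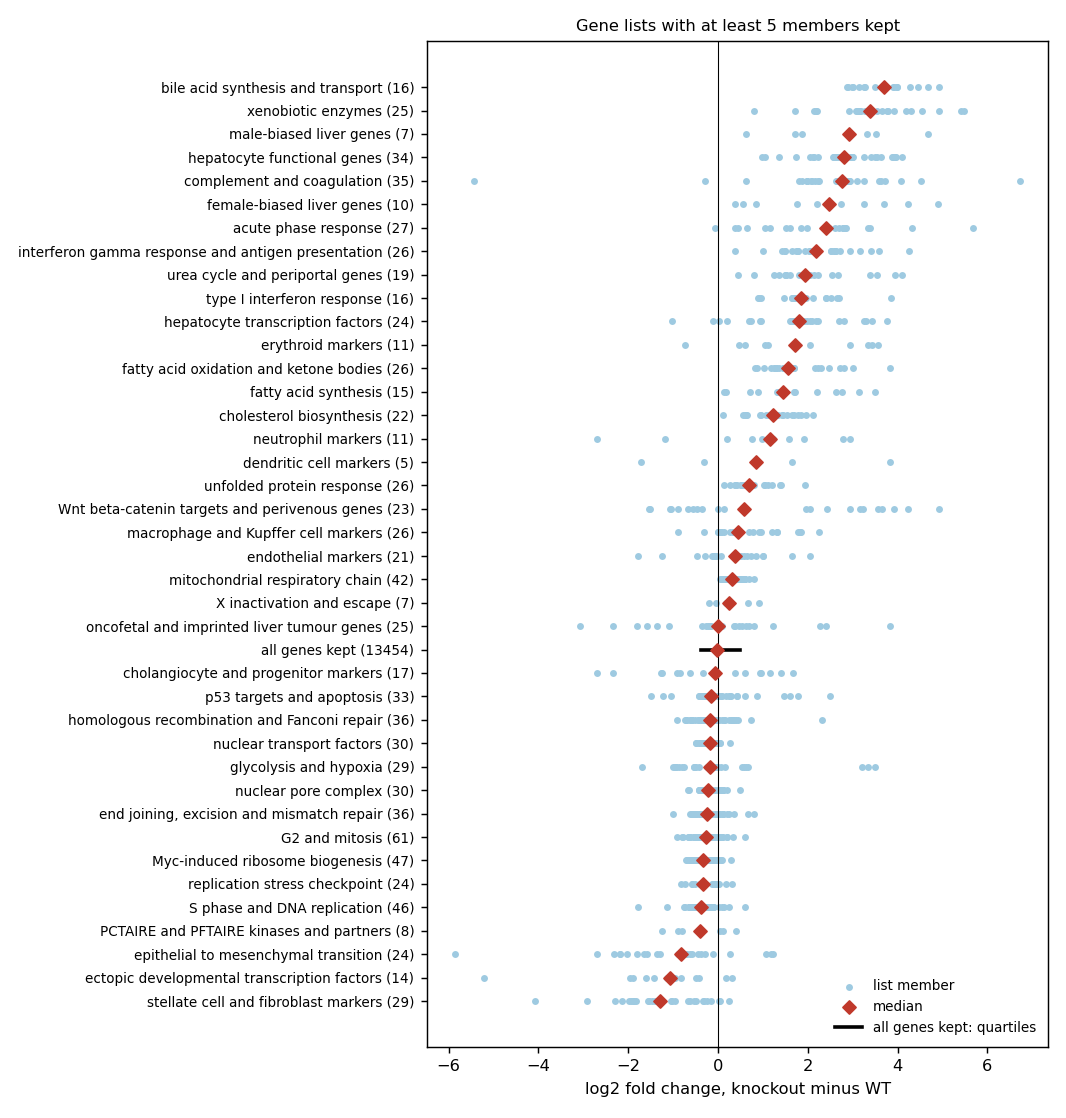
Each blue point is a kept gene of the list named at the left (number kept in brackets), placed at its log2 fold change of knockout over WT; red diamonds are medians and the black bar spans the middle part of all genes kept, from the 25th to the 75th percentile. Bile acid, xenobiotic and hepatocyte lists lie to the right with medians of 3.69, 3.38 and 2.81, stellate cell and mesenchymal lists to the left with -1.30 and -0.81.

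Most stromal marker genes stood lower. Of 29 kept stellate cell and fibroblast markers 26 were below 0, with a median of -1.30, 14 lower at an unadjusted p under 0.05 and 6 called lower by DESeq2, and edgeR called Apod alone. For this list and the next, the shares over all genes kept were 6.08% lower at that unadjusted p and 1.63% called lower by DESeq2. Col6a3, a chain of collagen VI, was at 132, 34.8, 58.1, 56.7 and 65.1 CPM in WT 1 to 5 and 2.95 to 32.0 CPM (median 11.3) in knockouts (-2.14, SE 0.47, edgeR adjusted p = 0.0970), with no overlap. Periostin (Postn), a matrix protein of activated fibroblasts, was at 49.3, 7.87, 16.3, 95.4 and 94.6 CPM in WT 1 to 5 and 0.328 to 15.0 CPM (median 5.97) in knockouts (-2.91, SE 0.68). WT 2 was the only WT library within the knockout range of Postn. Cygb, the globin of quiescent stellate cells, differed by -2.29 (SE 0.63), with CDK18KO 1 at 199.5 CPM, inside the WT range of 137 to 401. Summed CPM of the list was 1271 to 2349.5 CPM (median 1743) in WT and 86.9 to 2292 CPM (median 808) in knockouts, with the defining markers Col1a1, Col3a1, Dcn and Thy1 above 0 in every library. Single markers differed: the median of Dcn was 66.9 CPM in knockouts and 37.0 in WT, and Col1a1 reached 647 CPM in a knockout, above the WT maximum of 453.

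Of 24 kept genes of the epithelial to mesenchymal transition 20 were below 0 (median -0.81), 1 higher and 10 lower at an unadjusted p under 0.05 and 7 called lower by DESeq2, and edgeR called Twist1. The matrix protease Mmp9 was at 23.7, 22.5, 15.2, 7.92 and 16.7 CPM in WT 1 to 5, 2.12, 0, 0, 0 and 0.940 over CDK18KO 1 to 5, then 8.14, 3.45, 7.36 and 1.11 over DKO 1 to 4 (-2.69, SE 0.81, edgeR adjusted p = 0.0997). Only DKO 1 overlapped WT. Mmp9 also stands in the neutrophil list described further on, where its log2 fold change was the lowest while the pooled median was 1.17. The transcription factor Zeb2 differed by -1.66 (SE 0.53) and the matrix protein tenascin C (Tnc) by -2.32 (SE 0.75), both called by DESeq2. The median of this list was -1.38 in CDK18KO and -0.58 in DKO against the same WT libraries, and the pooled median was -1.26 without DKO 4 and -0.51 without WT 5. Stromal markers moved with this list, and their part in it was not tested.

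Cell cycle, nuclear pore and repair genes, the latter named in the series title, had medians slightly below 0. In each of these lists most members lay below 0, against 6820 of the 13454 genes kept. For G2 and mitosis the median was -0.26 over 61 genes, with 0 higher and 3 lower at an unadjusted p under 0.05, and for S phase and DNA replication -0.38 over 46, with 1 higher and 5 lower, among which Prim2 was called. Myc-induced ribosome biogenesis had a median of -0.33 over 47 genes, with 6 lower. Over all genes kept, 6.08% were lower at that threshold. Below 0 were 49 of the G2 and mitosis, 41 of the S phase and 43 of the ribosome genes. Against the same WT libraries, the S phase and ribosome medians were -0.25 and -0.09 in CDK18KO and -0.64 and -0.63 in DKO. With the hepatocyte list mean as a covariate the G2 and mitosis, S phase and ribosome medians turned to 0.26, 0.05 and 0.06. Chaf1a, a histone chaperone subunit, was at 95.0, 66.0, 77.6, 73.5 and 34.8 CPM in WT 1 to 5, 49.0, 30.9, 63.7, 43.9 and 70.0 over CDK18KO 1 to 5, then 33.4, 20.7, 39.1 and 18.4 over DKO 1 to 4 (-0.76, SE 0.32, edgeR adjusted p = 0.194). The replicative helicase gene Mcm3 differed by -0.63 (SE 0.26) and the rRNA transcription factor gene Rrn3 by -0.63 (SE 0.23), neither past the threshold in edgeR or DESeq2.

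Nuclear pore genes had a median of -0.22 over 30 kept members, 21 of them below 0. Of these 30, 1, Pom121, had an unadjusted p under 0.05, where 6.08% of all genes kept were lower at that p. Pom121, an anchor of the pore in the nuclear membrane, was at 90.1, 83.9, 100.1, 121 and 74.2 CPM in WT 1 to 5 and 34.4 to 81.0 CPM (median 55.6) in knockouts (-0.67, SE 0.23, edgeR adjusted p = 0.121, DESeq2 adjusted p = 0.0438). Nup188 of the inner ring and Nup153 of the nuclear basket differed by -0.65 (SE 0.35) and -0.41 (SE 0.26). Of 30 nuclear transport factors (median -0.18) 27 lay below 0. Among them Ipo9, an importin for histones, was lower in every knockout tumour, at 49.0, 47.1, 47.9, 51.7 and 47.7 CPM in WT 1 to 5 and 27.0 to 45.1 CPM (median 33.9) in knockouts (-0.49, SE 0.17, edgeR adjusted p = 0.133, DESeq2 adjusted p = 0.0182). Homologous recombination and Fanconi genes had a median of -0.18 over 36, and -0.10 without DKO 2, with 22 of the 36 below 0. At an unadjusted p under 0.05, 1 was higher and 1 lower, and DESeq2 called 1 higher. With the hepatocyte list mean as a covariate the medians of the pore, transport and recombination lists were 0.14, 0.04 and 0.23, above 0.

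The 9 knockout tumours differed among themselves. As the mean log2 CPM of the hepatocyte list relative to the WT mean, DKO 2 stood at 5.15 and DKO 1 at 4.47, and CDK18KO 3, DKO 3 and CDK18KO 1 at 0.77, 1.14 and 1.45, all below WT 2 at 2.51. Stellate cell markers were lowest in CDK18KO 4, at -3.53, and CDK18KO 1 and DKO 1 were within the WT range at -0.24 and -0.37. The median of the G2 and mitosis list was -0.03 in CDK18KO and -0.65 in DKO against the same WT libraries. Between DKO and CDK18KO 19 of its 61 genes had an unadjusted p under 0.05, against 5.60% of all genes kept. Neutrophil markers stood at 14.6 to 173 CPM in CDK18KO and 493 to 1539 CPM in DKO, against 77.0 to 356 CPM in WT. The median of the list was -0.98 in CDK18KO and 1.95 in DKO, and pooled it was 1.17, 0.77 without DKO 1 and -0.68 with the hepatocyte list mean as a covariate. Of the 11 kept neutrophil markers 7, and of the 11 erythroid markers 9, had an unadjusted p under 0.05 between the genotypes, against the same 5.60%.

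**Figure D5:**
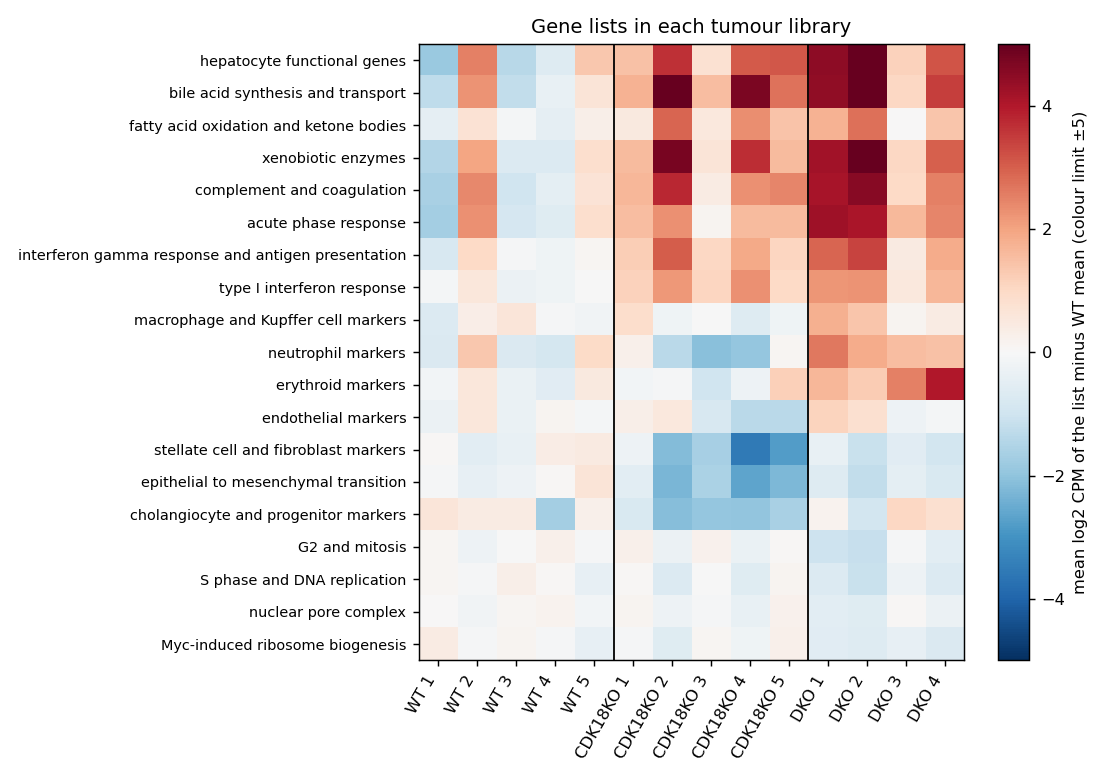
Columns are the 14 libraries, parted by lines into WT, CDK18KO and DKO, rows are gene lists, and the colour is the mean log2 CPM of the list minus its WT mean (red higher, blue lower, colours limited at ±5). The hepatocyte functional row is red in WT 2 (2.51) and pale in CDK18KO 3 (0.77), and neutrophil genes are blue in CDK18KO 3 (-2.07) and red in DKO 1 (2.63). Type I interferon genes lie above the WT mean in all 9 knockouts, but DKO 3 is pale (0.51) and below WT 2 (0.57).

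In 76 genes (0.565%) the 9 knockout values did not overlap the 5 WT values, 38 higher (0.282%) and 38 lower (0.282%) in knockouts, and 74 of them had an unadjusted p under 0.05. The following were picked from these after their values were seen. Nkd2, an inhibitor of Wnt signalling, was at 64.5, 109.6, 147, 132 and 96.1 CPM in WT 1 to 5 and 1.67 to 25.4 CPM (median 3.76) in knockouts (-3.30, SE 0.60, edgeR adjusted p = 0.0649). The chromatin remodeller Chd3 was at 562, 228, 216, 350.2 and 378 CPM in WT 1 to 5 and 13 to 149.9 CPM (median 85.5) in knockouts (-1.99, SE 0.46). On the higher side, the iron exporter Slc40a1 went from 13.4 to 31.2 CPM (median 26.9) in WT to 35.1 to 222 CPM (median 101) in knockouts (2.25, SE 0.49). The receptor for IGF2, Igf2r, was narrow in WT, at 129, 133, 119, 106 and 117 CPM in WT 1 to 5, and at 141 to 553 CPM (median 204) in knockouts (1.15, SE 0.32). The lysosomal sulfatase Arsa differed by 2.57 (SE 0.61) and Hibadh, of valine breakdown, by 1.24 (SE 0.29). DESeq2 called each of these 6 genes. With 1 library fewer, the number was 420 without WT 2, 120, 135 and 165 without WT 3, WT 4 and WT 5, 152 and 151 without CDK18KO 1 and CDK18KO 3, and 118 and 174 without DKO 1 and DKO 3. Apart from filter and scaling, leaving out a library can only keep or widen the gap of a gene, so a rise was built in.

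Genes near the targeted loci were also read. Within 5 Mb of Cdk18 on chromosome 1, 90 genes were kept, edgeR called 0, 15 had an unadjusted p under 0.05 (16.7%, against 21.0% of all genes kept) and Ipo9 alone had no overlap. Within 5 Mb of Cdk16 on the X chromosome 23 genes were kept, with 0 called, 4 at an unadjusted p under 0.05 (17.4%, against the same 21.0%) and 0 without overlap.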

How the data were processed

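The messenger RNA of 14 liver tumours was measured by 3′ end sequencing (QuantSeq 3′ FWD, a kit with a 6-base molecular identifier, 300 ng of RNA, 151-base single reads, per the labels' protocols). The authors deposited raw read counts per gene symbol, and no normalisation had been applied to the counts in the deposited table. Tools named in the submitters' processing notes are HTSeq 1.99.2, STAR 2.7.11a, DESeq2 1.32.0, UMI-tools 1.1.2 and FastQC, and the builds mm10 and GRCh38 are listed there without a role. Collapsing of identifiers and the annotation counted are not given in the sources used here. Columns of single samples left unused numbered 0.

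Here, counts were filtered by edgeR's filterByExpr on the 2 groups (13454 genes, 98.9% of counts), scaled by TMM and tested two-sided in edgeR 4.0.16 (R 4.3.3) by quasi-likelihood with Benjamini-Hochberg adjustment over all genes kept, called at an adjusted p under 0.05. DKO, CDK18KO and per-genotype values came from a 3-group fit. SE is the log2 fold change divided by the square root of F, and the common coefficient of variation was 0.593. P-values measure the spread between these animals. Named genes are Cdk18, Cdk16, the called genes or, in a direction with fewer than 10 called, the 10 with the smallest p, up to 4 members of each list described with the smallest p, and neighbours or copies of these; not every gene the rule picks is reported here. Gene groups come from 42 hand-written lists and are described by counts and medians, with no test of a list. Members and lists were chosen with earlier results of these data known, and some genes, such as Otc and Mmp9, stand in more than 1 list. Positions come from GENCODE M21 (94.0% of genes kept) and sequences from RefSeq, GRCm38.p6. The pipeline was tested on simulated data. Alternatives were RLE and upper-quartile factors, DESeq2 1.42.0, voom in limma 3.58.1, a robust fit, other filters, equal weight for the genotypes, covariates, a replicate block and leaving out libraries. Total counts per library limit the precision of low genes such as Cdk18.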

Additional observations from a re-analysis of the deposited data

Results flagged for a closer look

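Among 48 sets of values looked at (library totals, summed Y-linked genes, Cdk18, Cdk16, the called genes and the 9 next genes in the higher direction, each in WT and in knockouts), 5 held a library far from all others of its group, and chance gives about 1 in 20. Prim2 was at 29.5 CPM in WT 3, above the other WT libraries. Crabp1 was at 96.0 CPM in WT 4, and in CDK18KO 3 it was at 4.04 CPM, the highest knockout value. Twist1 was at 4.80 CPM in DKO 3, above the other knockout libraries. Y-linked genes summed to 361 CPM in CDK18KO 1, far above the remaining knockouts.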

How the results depend on the processing

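The number of genes called between pooled knockouts and WT, 11 by edgeR, was 11 with RLE or upper-quartile factors or a robust fit, 12 with equal weight for the genotypes, 9 with voom (4 shared), 39 with no filter (10 shared), 3 with a stricter filter (minimum count 50), 2 with the Y-linked covariate, 1 with the hepatocyte list covariate, 1429 with DESeq2 (11 shared), and 0 without the 3 libraries with Y-linked expression above 100 CPM. Leaving out 1 library at a time gave 5 to 567, and the cause of these differences was not tested. The 11 genes kept their direction in every alternative that kept them in the test. Replicate numbers do not pair the tumours: of 13 same-number pairs between groups 6 correlated above 0.1 (r -0.24 to 0.66) and 3 of 14 libraries matched their own number best. With the replicate number as a block 805 genes were called. Between DKO and CDK18KO the count of 0 was 73 with DESeq2, 42 with no filter and 0 to 2 on leaving out a library. The genes whose groups do not overlap numbered 47 under the stricter filter, 368 without the libraries of high Y-linked expression and 76 to 420 on leaving out 1 library. Fewer libraries favour a higher number by design. With the hepatocyte list covariate the log2 fold change turned to 0.19 for Nup153, 0.000378 for Ranbp1, 0.0694 for Eme1, 0.00961 for Noc2l, 0.0984 for Nop56 and -0.0584 for Glul, whose main values were -0.41, -0.42, -0.90, -0.68, -0.72 and 2.06. Of 2334 gene values under alternatives 2081 kept their direction and side of the threshold, 88 lost and 159 gained the call. Of 1089 list medians 1004 moved by less than 1 SD of the list mean between WT libraries and 85 by more. Upper-quartile factors moved the median of all genes to -0.14. Depth limits low genes: Cdk18 rests on 110 counts in WT and 52 in knockouts.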

Other observations

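Other metabolic lists stood above 0 as well. All 22 genes of cholesterol biosynthesis had a positive log2 fold change (median 1.22), 13 at an unadjusted p under 0.05, as had all 15 of fatty acid synthesis (median 1.46, 12) and all 19 of the urea cycle and periportal list (median 1.94, 12). With the hepatocyte list mean as a covariate these medians were -0.23, 0.03 and -0.19. The urea cycle list shares Otc with the hepatocyte list, so its fall with this covariate can be partly built in. All 42 respiratory chain genes lay above 0, with a median of 0.30 and 4 at an unadjusted p under 0.05, and all 26 of the unfolded protein response, with 0.68 and 14. For the lists of this paragraph, the shares over all genes kept were 14.9% higher and 6.08% lower at that unadjusted p. The respiratory chain list, with 4 of 42, was below the share higher. Targets of β-catenin and perivenous genes had a median of 0.57 over 23 genes, 1.72 without WT 5, 0.25 without WT 4 and -0.04 with the hepatocyte covariate, with 10 higher and 1 lower. Glul, glutamine synthetase of perivenous hepatocytes, was at 234, 807, 221, 412 and 637 CPM in WT 1 to 5 and 362 to 5452 CPM (median 1500.0) in knockouts (2.06, SE 0.71, edgeR adjusted p = 0.124). Male-biased liver genes had a median of 2.91 over 7 genes, or 1.60 without DKO 1, and female-biased ones 2.48 over 10, so both lists stood higher.

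Lists of tumour and stress genes lay nearer 0. The oncofetal and imprinted list had a median of 0.01 over 25 genes, from -0.09 to 0.28 on leaving out 1 library, p53 targets -0.15 over 33 (0.10 without WT 4) and glycolysis -0.18 over 29 (-0.42 without DKO 4). Of 42 developmental transcription factors, a list that holds Tfap2c, 14 were kept. Their median was -1.06, with 4 lower at an unadjusted p under 0.05, where 6.08% of all genes kept were lower. Replication stress genes had a median of -0.33 over 24, with 21 below 0 and 2 lower at an unadjusted p under 0.05, against the same 6.08%. End joining, excision and mismatch repair had -0.24 over 36 (-0.13 without WT 3), with 25 below 0. With the hepatocyte covariate the replication stress and end joining medians turned to 0.11 and 0.09.

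Markers of other cell types differed by genotype in several lists, read against the same WT libraries. Cholangiocyte and progenitor markers had medians of -1.37 in CDK18KO and 0.69 in DKO, erythroid markers -0.11 and 2.49, and the pooled erythroid median of 1.72 was 0.68 without DKO 4. Endothelial markers had a pooled median of 0.37 (0.09 without DKO 1) and macrophage markers 0.44 (0.26 without DKO 1), which turned to -0.51 and -0.02 with the hepatocyte covariate. Of T and NK, B and plasma and dendritic cell markers, 2, 3 and 5 genes were kept, with pooled medians of 0.06, 2.15 and 0.84. The genotypes differed here too: the medians were -0.88, -0.96 and 0.38 in CDK18KO and 0.75, 3.23 and 1.27 in DKO. All 3 B and plasma markers had an unadjusted p under 0.05 between the genotypes, so their pooled median describes neither genotype. On leaving out 1 library the T and NK median ran from -0.24 (without DKO 1) to 0.21, and the dendritic median was 0.54 without CDK18KO 3.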
